A study of Mus musculus with 18 samples.

Results

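Among the receptors for small amines, the trace amine-associated receptors (TAARs) smell amines in the nose, while the receptors for serotonin, dopamine, adrenaline and noradrenaline, acetylcholine and histamine are read here in the same sorted olfactory cells. The genes were taken by symbol from the table of expression values: the serotonin receptors Htr1 to Htr7, the dopamine receptors Drd1 to Drd5, the adrenergic Adra1, Adra2 and Adrb genes, the muscarinic Chrm1 to Chrm5 and the histamine receptors Hrh1 to Hrh4. Of 23359 gene symbols, 36 matches to the pattern are reported here. Of these, 34 encode G protein-coupled receptors: 12 for serotonin, 5 for dopamine, 8 adrenergic, 5 muscarinic and 4 for histamine. Htr3a and Htr3b also match but encode subunits of a serotonin-gated ion channel, so they were set apart. The gene for the first dopamine receptor is listed under its older symbol, Drd1a.

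The cells came from the main olfactory epithelium (MOE), the sheet of nose cells in which the olfactory sensory neurons (OSNs) sit. In Taar5-ires-Cre mice, Cre is made from the Taar5 transcript and switches on lox-L10-GFP, and in Taar6-ires-Cre mice it is made from the Taar6 transcript and switches on lox-ZsGreen. Reporter-positive and reporter-negative cells of the same crosses were sorted by FACS, so the controls carry the same alleles. The Taar5 line gave 7 Taar5+ and 9 control libraries, from pups of postnatal day 11 to 14. The Taar6 line gave 1 Taar6+ and 1 control library, from pups of postnatal day 16 to 17. These ages are those of the labels. The paper's reporting summary gives an adult age for both lines, and it gives a mixed background where the labels give C57BL/6. A positive cell is one that has made Cre, and sorted positive cells express a mixture of Taar genes. The controls are a mixed sort of everything without the reporter, mostly OSNs with an odorant receptor (OR).

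TAARs are relatives of the classical aminergic receptors and share with them the acidic residue that holds the amine. Classical aminergic receptors act through heterotrimeric G proteins. Those that couple to Gs raise cyclic AMP (Adrb1, Adrb3, Drd1, Drd5, Htr4, Htr6, Htr7, Hrh2), those that couple to Gi/o lower it (Drd2 to Drd4, the Adra2, Htr1 and Htr5 genes, Chrm2, Chrm4, Hrh3, Hrh4), and the rest act mainly through Gq and calcium. In OSNs the best known of them is the dopamine receptor encoded by Drd2, which sits on the axon terminals in the olfactory bulb and there reduces transmitter release when bulb interneurons release dopamine.

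The values are TPM, a length-corrected share of the transcripts of each library, so levels can be set side by side between genes within a library. TPM keep no sequencing depth, and no counting error can be given. Taar5 lay between 47.0 and 346.9 TPM in the 7 Taar5+ libraries and between 0 and 7.71 TPM in 8 controls, and the Taar values of control replicate 2, which are copies of those of replicate 1, were left out. Taar6 was 1576 TPM in the Taar6+ library and 15.8 TPM in its control. Omp, which marks mature OSNs, was at least 3908 TPM in the 16 libraries of the Taar5 line, and Cdh5, of blood vessels, at most 0.220 TPM. Other endothelial and mural markers were higher, with Rgs5 at 3111 TPM in control replicate 2. Their summed TPM was 5.42 to 761.8 in Taar5+ libraries and 16.9 to 3143 in controls. Of the 46 marker genes in the table, 39 were tested and 1 was called, against 21 (0.168%) of all 12502 genes tested. The marker called was Stoml3 of mature OSNs, which fell in Taar5+ cells (log2 fold change -1.42, SE 0.24, limma adjusted p = 0.00994). Control replicate 2 stood apart: of the 3204 genes whose median reached 50 TPM, it listed 639 at 0, against at most 39 in any other library. In the Taar6 line Gapdh and Ppia, which every cell uses, were at or near 0, so levels are not compared between the lines.

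Drd2 was by far the most abundant of the 34 genes. It lies on chromosome 9 (GRCm38, 49340627 to 49408177, plus strand) and has 7 coding exons in GENCODE M21, none of which overlaps another gene's exon. Its promoter is shown because it is the only gene of the set with a substantial level in every library but 1, and because olfactory neuron genes often carry sites for EBF factors. The 250 bases before the start of its RefSeq transcript (GRCm38.p6, chr9:49340153-49340402, plus strand) hold 1 match to the EBF core, searched as CCCNNGGG on both strands and given in capitals below. This RefSeq start lies upstream of the GENCODE start given above.

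Drd2 promoter: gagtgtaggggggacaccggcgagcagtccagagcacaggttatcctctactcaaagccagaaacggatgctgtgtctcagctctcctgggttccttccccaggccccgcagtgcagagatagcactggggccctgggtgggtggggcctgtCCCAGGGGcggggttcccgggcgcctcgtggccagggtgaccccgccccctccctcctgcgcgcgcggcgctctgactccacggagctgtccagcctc

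The match begins 98 bases before the start site. The same core was found in 11.8% of 32851 mouse promoter entries of this length. The receptor genes were counted by gene, with a match in any entry, so their share is in another unit. The core was in 6 of the 27 aminergic receptor genes that had a promoter entry: Adra1b, Adrb1, Drd2, Hrh1, Htr1f and Htr7. Of these 6, Hrh1, Htr1f and Htr7 were listed at 0 in all 18 libraries. The LHX2 core TAATTA was in 4.84% of promoters and not in that of Drd2. These matches describe the letters and do not show a bound site.

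**Figure D1:**
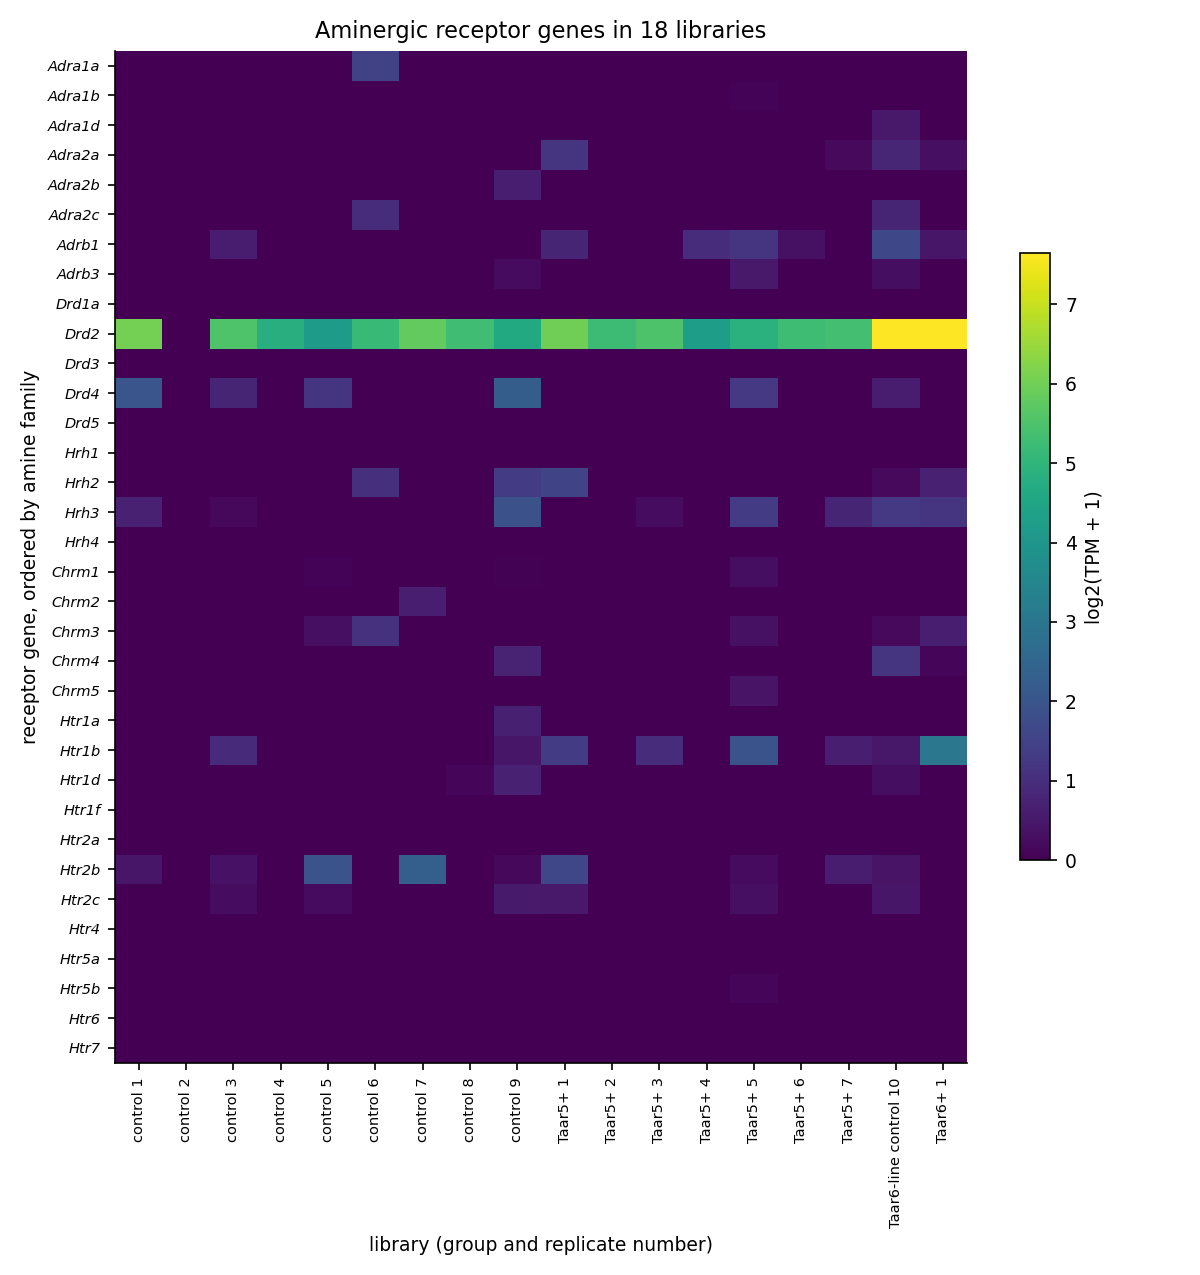
Level of each of the 34 receptor genes (rows, ordered by amine family) in each of the 18 libraries (columns), as log2(TPM + 1) in colour. Drd2 is the only row filled in every column but control replicate 2, and most other cells are at 0.

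Most aminergic receptor genes were listed at or near 0. In the 18 libraries, 11 of the 34 were listed at 0 throughout: Htr1f, Htr2a, Htr4, Htr5a, Htr6 and Htr7 for serotonin, Drd1a, Drd3 and Drd5 for dopamine, and Hrh1 and Hrh4 for histamine. All 8 adrenergic and all 5 muscarinic genes were above 0 in at least 1 library. Over the 16 libraries of the Taar5 line, 10 of the 34 reached 1 TPM in any library and 1, Drd2, had a mean of at least 1 TPM in either group. That is 2.94% of the set, against 61.7% of all gene symbols. Because abundant genes are also listed at 0 in some libraries, a 0 here may be an estimate that failed, and a gene listed at 0 is not shown to be absent from these cells. By annotation, 16 of the 34 have a single coding exon, and 12 of these were above 0 in at least 1 library, against 11 of the 18 with several coding exons. Exons of 7 genes (Adra1d, Adrb3, Chrm1, Chrm2, Drd5, Hrh3 and Htr1b) overlap those of a gene on the opposite strand, and the library method does not mark strand, so reads of each pair cannot be told apart.

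**Figure D2:**
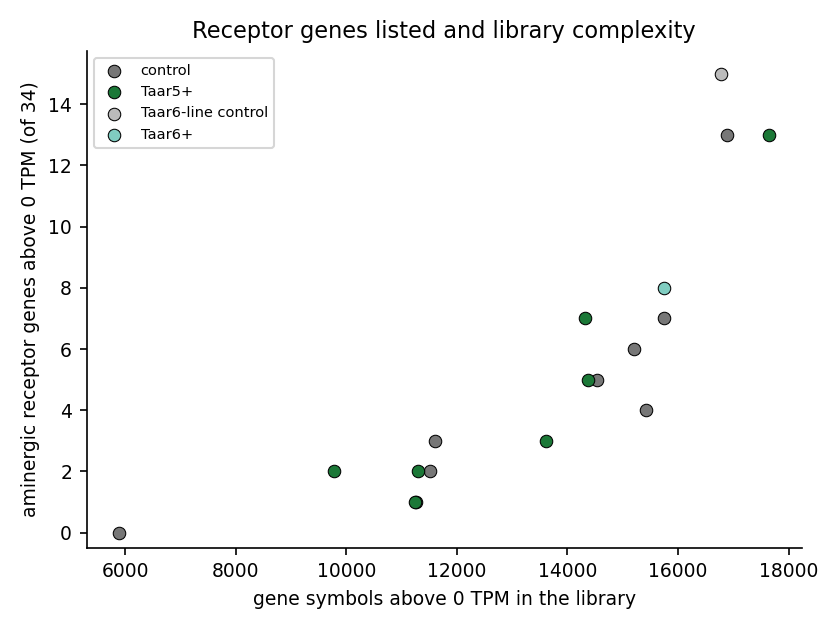
Number of the 34 receptor genes above 0 TPM (vertical axis) against the number of gene symbols above 0 TPM (horizontal axis), with 1 point per library, coloured by group. The libraries with the most receptor genes, 13 in control replicate 9, 13 in Taar5+ replicate 5 and 15 in the Taar6-line control, are also those with the most gene symbols.

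The number of these genes above 0 varied widely within both groups. The Taar5+ mean was 4.71 ± 4.19 genes (SD, n = 7) and the control mean 4.56 ± 3.91 genes (SD, n = 9). The number in a library moved with the number of all gene symbols above 0, which ranged from 5891 in control replicate 2, where all 34 were listed at 0, to 17653 in Taar5+ replicate 5, where 13 were above 0. Control replicate 9, with 16888 symbols, also had 13, and the Taar6-line control, with 16783, had 15. Taar5+ replicate 2, with 11234 symbols, and control replicate 4, with 11259, listed Drd2 alone of the 34. Whether depth sets these counts was not tested.

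Drd2 was found in reporter-positive and reporter-negative cells, at levels of the same order. The 7 Taar5+ libraries had 62.7, 36.7, 44.2, 18.5, 28.5, 37.9 and 39.8 TPM. The 9 controls had 65.4, 0, 45.9, 27.5, 17.4, 35.1, 55.6, 38.1 and 24.1 TPM. Apart from the 0 in control replicate 2, every Taar5+ value lay within the range of the controls. The Taar5+ mean was 38.3 ± 13.7 TPM (SD, n = 7). The control mean was 34.3 ± 20.0 TPM (SD, n = 9), or 38.6 ± 16.3 TPM (SD, n = 8) without control replicate 2. The log2 fold change of TPM + 1 was 0.60 (SE 0.67, 95% interval -0.79 to 1.99, limma adjusted p = 0.955), and without that library it was 0.02 (SE 0.31, 95% interval -0.63 to 0.67, limma adjusted p = 0.991). No difference was detected, and the narrower interval still allows a change of up to 0.67 on the log2 scale. Nothing in the labels says that the libraries of a group came from separate animals, so these p-values measure only the spread between the libraries.

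Drd2 also made up most of the summed level of these genes. In the 15 libraries of the Taar5 line where it was above 0, it was 67.4% to 100% of the summed TPM of the 34 genes, with a median of 94.4%. The lowest share was in control replicate 9, and the share was 100% in Taar5+ replicate 2 and control replicate 4. By level Drd2 stood in the top 10.7% to 29.3% of all gene symbols in these libraries, including those listed at 0. Among the symbols above 0 in each library, it stood in the top 16.6% to 51.8%. In the Taar6 line it was 198.9 TPM in the Taar6+ library and 196.5 TPM in the control, a difference of 0.02 on the log2(TPM + 1) scale with no replicate in either group.

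**Figure D3:**
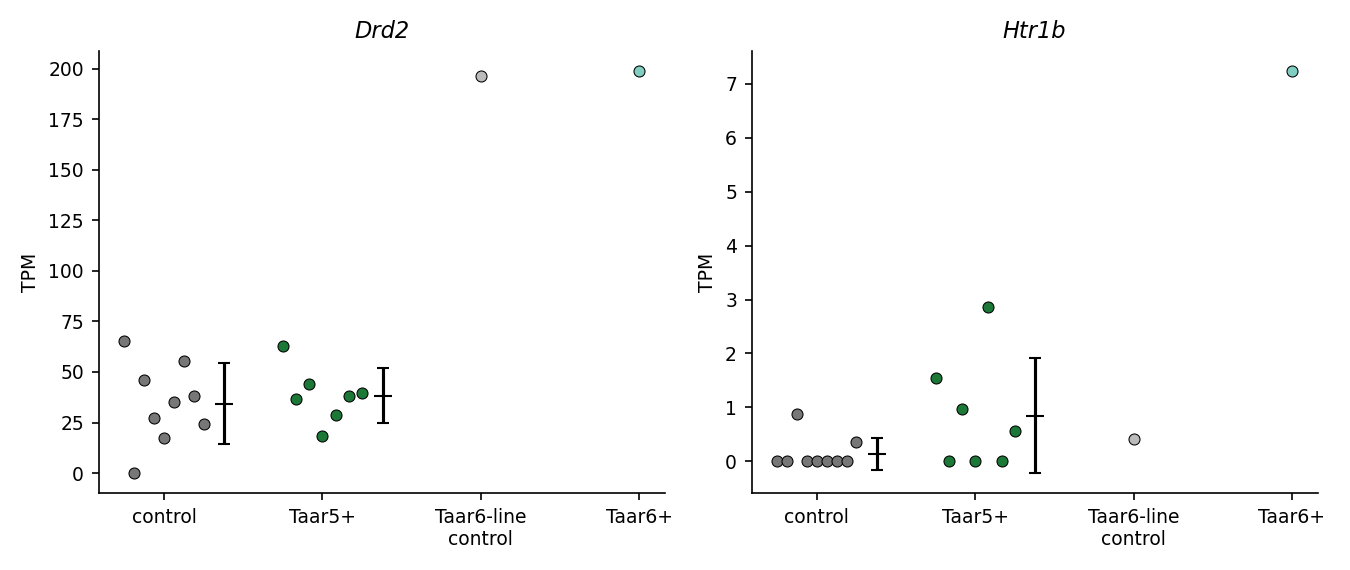
TPM of Drd2 (left) and Htr1b (right) by group, with 1 point per library and the mean ± SD beside the groups with replicates. Drd2 overlaps widely between Taar5+ and control libraries, with control replicate 2 at 0. In these groups Htr1b is at most 2.87 TPM and is above 0 in 4 of 7 Taar5+ libraries and in 2 of 9 controls. In the Taar6 line it is 7.24 TPM in the Taar6+ library and 0.407 TPM in the control, and levels are not compared between the lines.

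Among the other dopamine receptors, Drd4, which like Drd2 lowers cyclic AMP, was the only one above 0. It was 3.03, 0.741, 1.27 and 3.79 TPM in control replicates 1, 3, 5 and 9 and 0 in the other 5 controls. Of the Taar5+ libraries it appeared in replicate 5 alone, at 1.41 TPM. Drd4 thus appeared in 4 of 9 controls and 1 of 7 Taar5+ libraries, too few for it to pass the filter (1 TPM or more in 7 or more of the 16 libraries), so it was not tested. Drd1a and Drd5, which raise cyclic AMP, and Drd3 were listed at 0 in every library.

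The adrenergic receptors were sparse. Adrb1, coupled to Gs, appeared in Taar5+ replicates 1, 4, 5 and 6, at 0.748, 0.977, 1.25 and 0.267 TPM, and in 1 control, replicate 3, at 0.487 TPM. Adra2a, coupled to Gi/o, was 1.22 and 0.154 TPM in Taar5+ replicates 1 and 7 and 0 in every control of that line. Adra1a, a Gq-coupled receptor, and Adra2c were above 0 in control replicate 6 alone among the 16, at 1.87 and 0.948 TPM. Adrb3 appeared in control replicate 9 (0.165 TPM) and Taar5+ replicate 5 (0.428 TPM), Adra2b in control replicate 9 (0.571 TPM), Adra1b in Taar5+ replicate 5 (0.0557 TPM) and Adra1d only in the Taar6-line control (0.448 TPM).

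Serotonin receptors were led by Htr1b and Htr2b. Htr1b, a Gi/o-coupled receptor best known from axon terminals, was 1.54, 0, 0.969, 0, 2.87, 0 and 0.565 TPM in Taar5+ libraries. In controls it was 0.878 TPM in replicate 3, 0.368 TPM in replicate 9 and 0 in the other 7. It was above 0 in 4 of 7 Taar5+ libraries and 2 of 9 controls, and was 7.24 TPM in the Taar6+ library against 0.407 TPM in its control. The gene it overlaps on the opposite strand is D430036J16Rik. Htr2b, coupled to Gq, was highest in control replicate 7 (3.92 TPM), control replicate 5 (2.88 TPM) and Taar5+ replicate 1 (2.09 TPM), and was at most 0.495 TPM in the other libraries. Neither passed the filter. Htr2c was above 0 in 6 of the 18 libraries, at 0.157 to 0.469 TPM. Htr1d was above 0 in 3, Htr1a and Htr5b in 1 each, all below 1 TPM. Of the channel subunits set apart, Htr3a reached 3.22 TPM in control replicate 9 and 1.79 TPM in Taar5+ replicate 5, and in the other line it was 3.69 TPM in the control. Htr3b was above 0 in Taar5+ replicate 5 alone, at 0.0718 TPM.

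The muscarinic receptors, which answer to acetylcholine, stayed near 0. Chrm3, the Gq-coupled member reported to modulate OR signalling, was 1.14 TPM in control replicate 6, 0.241 TPM in control replicate 5 and 0.267 TPM in Taar5+ replicate 5, and 0 in the other 13 libraries of the line. Chrm1 was above 0 in 3 libraries, at most 0.211 TPM. Chrm2, Chrm4 and Chrm5 were each above 0 in 1 of the 16 libraries, at 0.552, 0.666 and 0.309 TPM.

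Histamine receptors were scarce as well. Hrh3, which on nerve endings limits release, was above 0 in 3 of 7 Taar5+ libraries (0.180, 1.49 and 0.746 TPM) and 3 of 9 controls (0.613, 0.125 and 2.69 TPM). The gene it overlaps is Gm17180. Hrh2, which raises cyclic AMP, was 1.04 and 1.56 TPM in control replicates 6 and 9 and 1.95 TPM in Taar5+ replicate 1. For Hrh3 and Hrh2 alike, the ranges of the 2 groups overlap.

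Of the 34 receptor genes, 1 (2.94%), Drd2, passed the filter, against 53.5% of all symbols, and limma called 0, with 0 at an unadjusted p under 0.05. Across all 12502 genes tested, 21 were called (0.168%), 18 higher and 3 lower in Taar5+ cells, and 881 (7.05%) had an unadjusted p under 0.05. With limma's array weights, the other weighting run, 1329 genes (10.6%) were called, and the count of receptor genes was again 0. The other 33 of the 34 were too low to be tested.

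**Figure D4:**
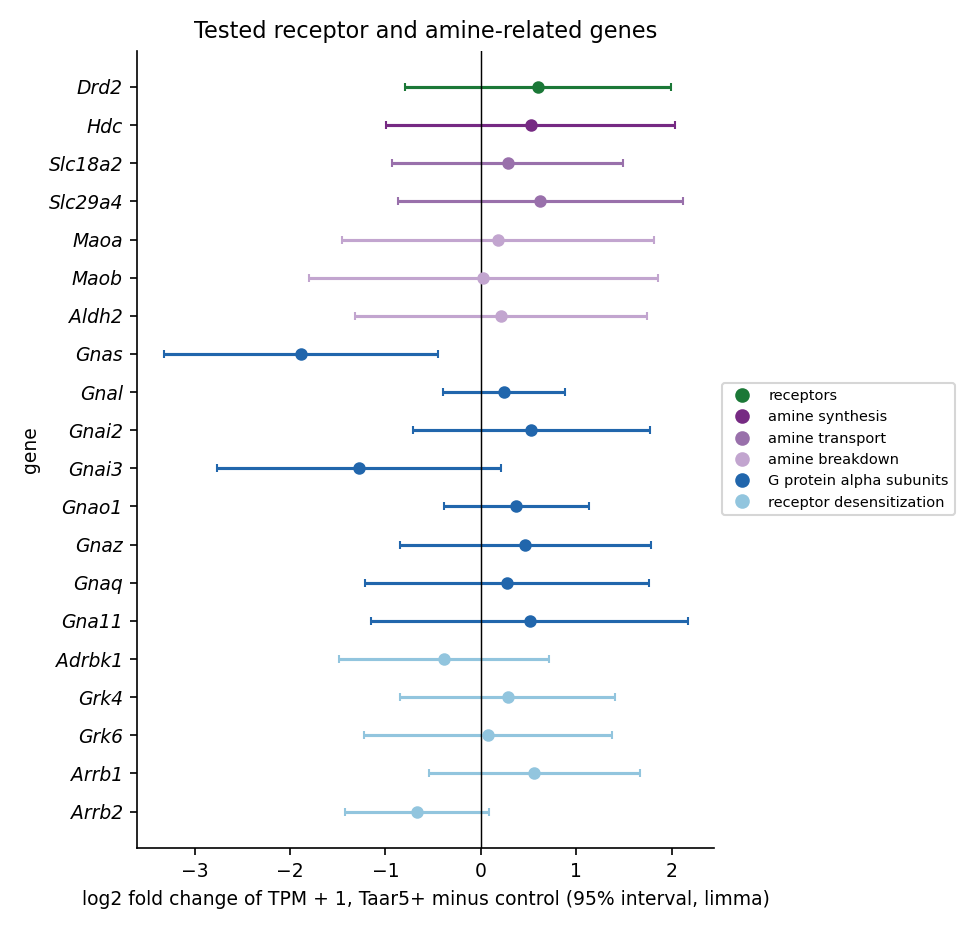
Log2 fold change of TPM + 1 (horizontal axis, Taar5+ minus control) with its 95% interval from limma for the 20 tested genes of the receptors, amine handling, G proteins and desensitization, coloured by list. Every interval but that of Gnas spans 0, and Gnas did not pass the adjusted threshold.

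The genes that make, carry and break down the amines were read from the same libraries. Of 25 such genes in the table, 6 passed the filter and limma called 0, with 0 at an unadjusted p under 0.05. Array weights also called 0. The shares over all genes tested were 0.168%, 7.05% and, with array weights, 10.6%. The 6 log2 fold changes ran from 0.03 to 0.62, with a median of 0.25 against 0.02 over all genes tested, and 5 of the 6 changed sign under at least 1 alternative. Among the synthesis genes, only Hdc, which makes histamine, reached a mean of 1 TPM. It was 20.3 to 82.1 TPM in Taar5+ libraries, with a median of 71.1 TPM, and 55.4 to 81.7 TPM in the 8 controls other than replicate 2, which listed it at 0. Its log2 fold change was 0.52 (SE 0.72, limma adjusted p = 0.959), and it turned to -0.16 without control replicate 2. Th, Ddc, Dbh, Pnmt, Tph1, Tph2 and Chat, the genes for making dopamine, noradrenaline, adrenaline, serotonin and acetylcholine, had a mean below 1 TPM in both groups, and Tph2 was listed at 0 throughout. Among these, Chat had the highest mean and reached 2.998 TPM in control replicate 6.

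Of the transporters, Slc29a4, a low-affinity carrier of monoamines, was 6.11 ± 2.84 TPM (SD, n = 7) in Taar5+ libraries and 5.42 ± 6.57 TPM (SD, n = 9) in controls. Slc18a2, which loads amines into vesicles, was 3.35 ± 2.61 TPM (SD, n = 7) and 2.90 ± 2.49 TPM (SD, n = 9). Slc22a2, an organic cation carrier, was 9.67, 0, 3.38, 0, 8.98, 0 and 1.15 TPM in Taar5+ libraries and at most 0.576 TPM in controls, and did not pass the filter. Slc18a1 was the next, reaching 2.22 TPM in a Taar5+ library. The plasma membrane transporters for dopamine (Slc6a3) and serotonin (Slc6a4) were listed at 0 in the 16 libraries. Some of the breakdown genes were higher. Aldh2, an aldehyde dehydrogenase, was 144.9 ± 205.0 TPM (SD, n = 7) in Taar5+ libraries and 94.9 ± 112.1 TPM (SD, n = 9) in controls. Its mean fell to 71.4 TPM without Taar5+ replicate 5 (586.3 TPM) and to 59.2 TPM without control replicate 2 (379.9 TPM). Of the monoamine oxidases, Maob was 14.4 ± 18.9 TPM (SD, n = 7) and 21.2 ± 46.3 TPM (SD, n = 9). The control mean was 5.83 TPM without replicate 2 (144.3 TPM), which turns the order of the group means, and the Taar5+ mean was 7.67 TPM without replicate 5 (55.0 TPM). The same 2 libraries had the highest summed markers of sustentacular and gland cells (values given with Gnas), whose part in the Aldh2 and Maob values was not tested. Maoa was 6.16 ± 4.80 TPM (SD, n = 7) and 5.70 ± 5.04 TPM (SD, n = 9). Hnmt, which methylates histamine, was above 0 in 3 of 7 Taar5+ libraries and 4 of 9 controls, at most 9.96 TPM, and was not tested.

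**Figure D5:**
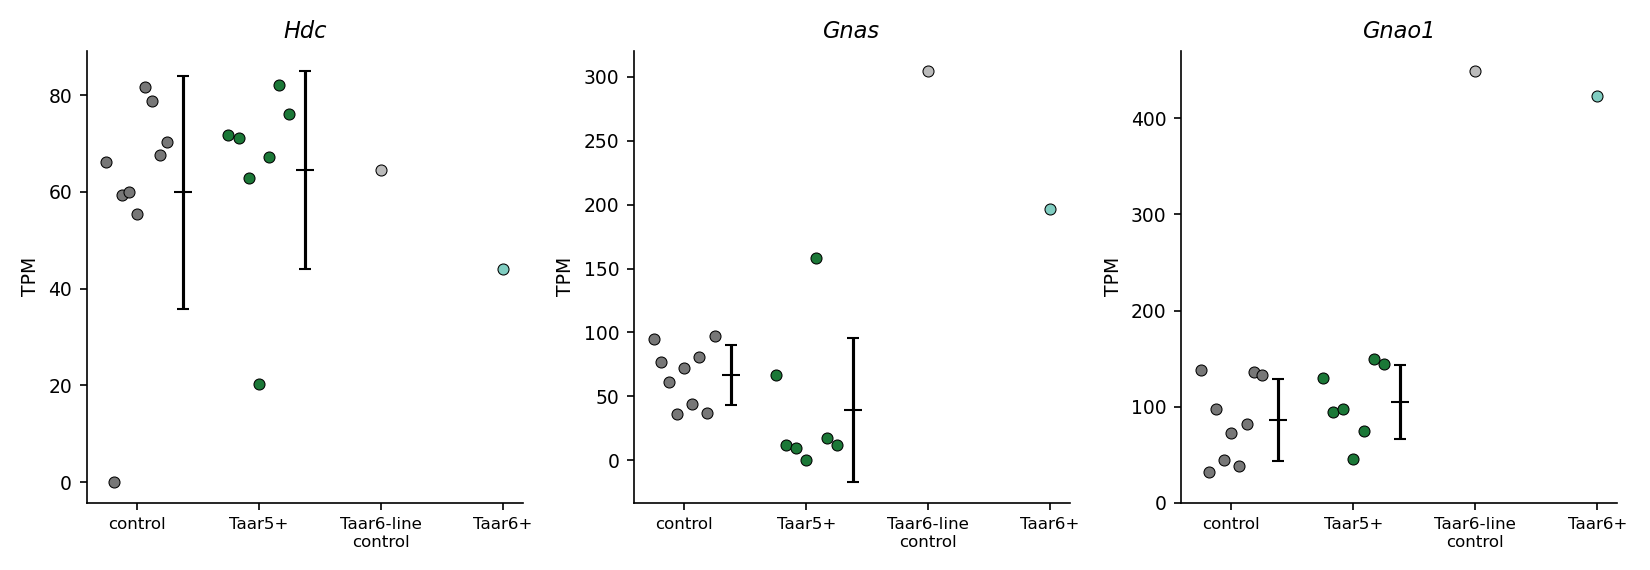
TPM of Hdc (histamine synthesis), Gnas (Gs alpha) and Gnao1 (Go alpha) by group, with 1 point per library and the mean ± SD beside the groups with replicates. Hdc and Gnao1 overlap between Taar5+ and control libraries, and 5 of 7 Taar5+ libraries lie below every control for Gnas.

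The G proteins through which these receptors act were present. Of 18 genes for G protein alpha subunits, receptor kinases and arrestins, 13 were tested and limma called 0, with 1 at an unadjusted p under 0.05. Over all genes tested, 0.168% were called and 7.05% had an unadjusted p under 0.05. With array weights 1 of the 13 was called, against 10.6% of all genes tested. Their median log2 fold change was 0.27, with 9 above 0 and 4 below. Gnal, the alpha subunit of odour transduction, was 1452 ± 396 TPM (SD, n = 7) in Taar5+ and 1312 ± 454 TPM (SD, n = 9) in control libraries. Gnao1, the Go partner of Gi/o-coupled receptors such as that of Drd2, was 105.1 ± 38.3 TPM (SD, n = 7) and 86.0 ± 42.8 TPM (SD, n = 9), with a log2 fold change of 0.37 (SE 0.36, limma adjusted p = 0.954). Gnai3, another inhibitory subunit, was 18.5 ± 16.2 TPM (SD, n = 7) and 40.2 ± 40.1 TPM (SD, n = 9).

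Gnas, the Gs subunit through which some of these receptors raise cyclic AMP, was the gene with the unadjusted p under 0.05. The Taar5+ libraries had 66.7, 11.996, 9.37, 0.317, 158.0, 17.2 and 12.2 TPM, and the controls 36.5 to 97.0 TPM (median 72.0). In 5 of the 7 Taar5+ libraries it lay below every control, and in replicate 5 above every control. The log2 fold change was -1.88 (SE 0.69, limma adjusted p = 0.426). It passed with array weights (-2.06, adjusted p = 0.00246) and when control replicate 2 and Taar5+ replicate 5 were both left out (-2.38, adjusted p = 0.0378), an alternative chosen after seeing the data. These settings called 10.6% and 2.83% of all genes tested, respectively. With 1 library left out, it ranged from -2.42 without Taar5+ replicate 5 (adjusted p = 0.0820) to -1.27 without Taar5+ replicate 4 (adjusted p = 0.710), and it passed in none of these fits.

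Markers of other cells are given beside Gnas, because they also differed among the Taar5+ libraries. The summed TPM of the immune markers Ptprc, Cd74, Lyz2 and C1qa was 74.3 to 825.8 in the 9 controls. In Taar5+ libraries it was 100.5 in replicate 1 and 393.1 in replicate 5, where Gnas was high, and 0 to 37.0 in the other 5. The controls ran the other way: the sum was highest in replicates 8, 4 and 6 (825.8, 426.9 and 416.8). Gnas was lowest in the same replicates (36.6, 36.5 and 44.1 TPM). All of these immune genes had a log2 fold change below 0, from -4.09 for Cd74 to -1.24 for Ptprc. An unadjusted limma p under 0.05 was seen for 3 of the 4, against 7.05% of all genes tested, but none passed the adjusted threshold. Ptprc, which defines white blood cells, was at 0 in 5 of the 7 Taar5+ libraries and in 2 of the 9 controls. Hba-a1, a haemoglobin gene of red blood cells, spanned 5.71 to 1415 TPM in Taar5+ libraries and 1.14 to 6192 TPM in controls, with a log2 fold change of 0.13.

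The summed TPM of the horizontal basal cell markers Krt5, Krt14 and Trp63 ranged from 60.1 to 122.5 in the 8 controls other than replicate 2. It was 180.9 in Taar5+ replicate 5 and 0 to 17.5 in the other Taar5+ libraries, below those 8 controls. All 3 genes had an unadjusted limma p under 0.05, against 7.05% of all genes tested, and none passed the adjusted threshold. All 3 were at 0 in control replicate 2 and in Taar5+ replicates 2 and 6. The summed sustentacular (supporting cell) markers were 7417 in Taar5+ replicate 5 and 9078 in control replicate 2, against 61.4 to 1755 in the other Taar5+ libraries and 28.7 to 720.7 in the other controls. These 2 libraries were also highest in the summed gland markers (6341 and 1700) and in the endothelial and mural markers (761.8 and 3143). Taar5+ replicate 1 was next to replicate 5 among the Taar5+ libraries in all 3 of these sums (1755, 190.9 and 129.8). The summed immature OSN markers were lowest in control replicates 6 and 8 (299.2 and 432.2), against 1361 to 2979 in the other controls. Control replicate 4, where Gnas was also low, had 1790. Taar5+ libraries had 1069 to 1783. The summed progenitor markers were 8.88 and 0 in control replicates 6 and 8, and 0 in control replicate 2 (Gnas 77.0 TPM). The other controls had 37.2 to 91.5. In Taar5+ libraries this sum was highest in replicates 5 and 1 (88.7 and 12.5). The part of these cells in the Gnas values was not tested. In bulk samples, fewer cells of a type and less RNA per cell cannot be told apart.

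Of the genes that end receptor signalling, Arrb2, an arrestin, was 24.1 ± 9.35 TPM (SD, n = 7) in Taar5+ and 38.5 ± 14.2 TPM (SD, n = 9) in control libraries, with a log2 fold change of -0.67 (SE 0.36, limma adjusted p = 0.805). The receptor kinase Grk6 was 3.70 ± 2.57 TPM (SD, n = 7) and 4.55 ± 4.84 TPM (SD, n = 9). Grk4 and Arrb1 followed, with group means between 1.78 and 2.72 TPM.

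In the Taar6 line, with 1 library per group and so no test, 15 of the 34 receptor genes were above 0 in either library and 8 in both. Drd2 and Hrh3 were at 1 TPM or more in both. Hrh3 was 1.23 and 1.41 TPM, Chrm3 0.571 and 0.133 TPM, and Hrh2 0.626 and 0.142 TPM. Adra2a was 0.236 and 0.766 TPM. Adrb1 was 0.370 TPM in the Taar6+ library and 2.15 TPM in the control, and Chrm4 0.0825 and 1.23 TPM. The other genes above 0 in that control but at 0 in the Taar6+ library were Adra1d, Adra2c, Adrb3, Drd4, Htr1d, Htr2b and Htr2c, each below 1 TPM.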

How the data were processed

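From FACS-sorted cells, the authors prepared Smart-seq2 libraries, which amplify full-length cDNA by PCR and carry neither molecular identifiers nor strand. The submitters' processing notes name Trimmomatic 0.36, HISAT2 2.1.0 and Cufflinks 2.2.1, with mm10 as the genome. The authors deposited TPM in 23847 rows, of which 488 that repeat a symbol were summed with it. How TPM were derived, the annotation and the handling of multi-mapping reads are not given in the sources used here. TPM of Taar genes in control replicate 2 were treated as missing.

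In the 16 libraries of the Taar5 line, limma 3.58.1 (R 4.3.3, eBayes with trend) was run on log2(TPM + 1) of the 12502 genes that reached 1 TPM in 7 or more libraries. P-values were adjusted over these genes by Benjamini-Hochberg, with a threshold of 0.05. Fold changes on this scale understate those of low genes. The step was tested on simulated data. The Taar6 line, with 1 library per group, entered no test. Positions are from GENCODE M21 and promoters from RefSeq (27 of the 34 genes matched). The receptor genes, the lists of amine-handling, G protein, desensitization and cell type marker genes, and the rule for naming genes were chosen with earlier results of these data known. By that rule every receptor reported is named, those with a group mean of at least 1 TPM with all values, and of the other lists the called genes and up to 4 with the highest mean. Some genes of these lists are not reported here. Alternatives were another pseudocount, other filters and scalings, array weights, eBayes without trend, a replicate block, the 10 controls and leaving out libraries.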

Additional observations from a re-analysis of the deposited data

Results flagged for a closer look

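On the log2(TPM + 1) scale, 13 genes were checked in Taar5+ and control libraries. In 7 of the 26 cases 1 library lay far from the rest of its group, where chance would give about 1.3 if the cases were independent. The genes share the same libraries, so the cases are not independent and the excess over 1.3 cannot be judged. Control replicate 2 makes up 4 of the 7 cases. It listed Drd2 and Hdc at 0 TPM, had Gnal at 279.6 TPM where the other controls had at least 1070 TPM, and had Maob at 144.3 TPM where no other control exceeded 10.9 TPM. In Taar5+ cells, replicate 4 had Hdc at 20.3 TPM against at least 62.9 TPM in the other 6 and listed Slc29a4 at 0, and replicate 6 listed Gnai3 at 0.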

How the results depend on the processing

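The count of aminergic receptors called was 0 under all 27 alternatives. With no filter 22 of the 34 were tested with 1 at an unadjusted p under 0.05, against 1151 of all 19192 genes tested. The count of amine-handling genes was also 0 under all 27. The count of G protein and desensitization genes rose from 0 to 1, Gnas, with array weights and with control replicate 2 and Taar5+ replicate 5 both left out. Gnas fell in both (-2.06 and -2.38). Over the alternatives, Drd2 ranged from 0.02 to 0.97 (limma adjusted p 0.572 to 0.999). Of the 13 genes followed, 7 changed direction. Drd2, the only receptor gene among the 13, was not one of them. Hdc was -0.18 without both libraries and ranged from -0.16, without control replicate 2, to 0.77 with 1 library left out, and Gnal from -0.018, also without control replicate 2, to 0.36. With array weights, Slc18a2 was -0.39, Aldh2 -0.16 and Grk6 -0.41. With 1 library left out, Aldh2 ranged from -0.30 to 0.55, Maoa from -0.086 to 0.56, Maob from -0.43 to 0.54 and Grk6 from -0.17 to 0.33. Maoa was -0.33 and Grk6 -0.27 without both libraries, Grk6 was -0.32 with 10 controls, and Maob was -0.18 at a pseudocount of 0.1. Receptors with a group mean of at least 1 TPM numbered 1, or 11 at a mean of 0.1 TPM, and 1 to 2 with a library left out, where Drd4 was the other.

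The count over all genes, 21, was 109 with quantile normalization, 13 with the replicate block, 1329 with array weights and 337 without both libraries, and 16 to 148 with 1 library left out (148 without control replicate 2, 66 without Taar5+ replicate 5). The labels tie shared replicate numbers to no animal or day. Deviations of same-numbered libraries correlated at -0.01 to 0.28, over 0.1 in 5 of 7 pairs, and 3 of 7 correlated best with their own number, a hint from the data and not from the design. Because 2 of the 7 lay below 0.1, the numbers were not taken as pairs. With the replicate block Slc29a4 was 1.16 (unadjusted p = 0.0469, adjusted p = 0.629), and in the same libraries without it 1.16 (unadjusted p = 0.106). The 14 libraries gave 16 calls without the block, an alternative chosen after seeing the data, as was leaving out both libraries. The causes were not tested. The unknown depth limits every statement on a gene listed at 0.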
